A study of Mus musculus with 27 samples.

Results

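Gfi1 and Gfi1b encode GFI1 and GFI1B, a pair of related zinc-finger repressors, and their transcripts were followed in 27 RNA-seq libraries of the mouse pro-B line Ba/F3, which grows in the cytokine IL3. The members are 2 of the 24000 gene rows in every library and were found by symbol. Only 1 of them, Gfi1b, had enough reads to pass the filter on low counts that left 12073 genes for testing. The members were chosen by these data: the pair was put forward with a lower Gfi1b level in IL3-stimulated than in deprived wild-type cells already known, so that contrast is given below as a description, without a test. Whether the hairpin comparisons also led to the choice is not known. Their adjusted p-values give a gene's place among all genes and are not independent evidence.

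All libraries are polyA RNA from Ba/F3 cells kept in 1 ng/mL IL3 and deprived of it for 6 h. Puromycin-selected cells carrying a lentiviral short hairpin then received 10 ng/mL IL3 for 30 min, with hairpins against LSD1, HDAC3, STAT5A or STAT5B (3 libraries each) or with no target (5 libraries). Wild-type cells were sampled after the same stimulation (5 libraries) or while still deprived (5 libraries). The labels speak of biological replicates without saying whether they are separate cultures, so p-values measure the spread between these libraries, and all of them come from 1 cell line. LSD1, encoded by Kdm1a, is a histone demethylase, HDAC3 is a histone deacetylase, and STAT5A and STAT5B are transcription factors activated through the IL3 receptor.

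GFI1 and GFI1B bind DNA at sites with the core AATC through their C-terminal zinc fingers and carry an N-terminal SNAG domain, which mimics the tail of histone H3 and recruits LSD1 with its partner CoREST. Through LSD1 and histone deacetylases they silence their targets, and both genes are known to be repressed by their own and each other's product. In blood formation GFI1 acts mainly in stem cells, granulocytes and lymphocytes, and GFI1B mainly in erythroid cells and megakaryocytes.

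Gfi1b (ENSMUSG00000026815.14) lies on the minus strand of chromosome 2 at 28609450 to 28621982 in GRCm38/mm10, with no overlapping annotated gene in GENCODE vM21. Its promoter is shown because Gfi1b is the member whose level changed with the LSD1 hairpin, and because it carries the letters that its own protein family reads. The 300 bases at chr2:28621933-28622232 (minus strand, GRCm38.p6, from RefSeq) run 5′ to 3′ from 250 bases before the transcript start to 50 after it. Capitals mark AATC on either strand (read as GATT on the reverse), the STAT-type palindrome TTCNNNGAA and the GATA-type motif GATAA, which do not overlap here.
Gfi1b promoter: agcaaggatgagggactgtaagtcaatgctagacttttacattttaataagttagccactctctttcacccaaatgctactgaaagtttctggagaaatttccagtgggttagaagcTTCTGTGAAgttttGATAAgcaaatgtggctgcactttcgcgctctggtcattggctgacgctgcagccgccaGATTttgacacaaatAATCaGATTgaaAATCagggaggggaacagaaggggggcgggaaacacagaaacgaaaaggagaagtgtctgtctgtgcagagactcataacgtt
AATC or its reverse complement occurred 4 times, starting 60, 45, 40 and 33 bases before the start. At least 1 match was present in 73.1% of 32851 RefSeq promoters of the same length, and at least 4 matches in 10.1%. A cluster of 3 matches within 20 bases, as here, was present in 0.478%. No basis for that window apart from this sequence is stated, so its share is a description and not a test. TTCTGTGAA lay 133 to 125 bases before the start, and 8.3% of promoters hold TTCNNNGAA. GATAA lay 119 to 115 bases before the start, in common with 25.4% of promoters, and 2.11% hold all 3 motifs. These matches describe letters in the sequence and are not measured binding sites. Of the 2 RefSeq promoters of Gfi1, the first held 1 AATC match and the second none, and neither held TTCNNNGAA or GATAA.

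The libraries held 5.48 to 33.8 M reads counted in genes, and Gfi1b drew 124 to 6455 reads per library. Reads outside genes were taken as a share of reads in genes, outside genes or ambiguous, leaving out multi-mapped, low-quality and unaligned reads. In 5 libraries (LSD1 replicate 1, HDAC3 replicates 1 and 2, no-target replicates 1 and 3) this share was 14.0 to 24.9%. The other 22 libraries had 8.70 to 12.0%. Of these 22, 4 had few multi-mapped reads (STAT5A replicate 3, STAT5B replicate 2, and replicate 2 of stimulated and of deprived wild type). They held 0.177 to 0.190 per counted read, against 0.200 or more in every other library. The Ba/F3 label was only partly borne out by markers. Of the pro-B markers described here, Cd79a and Cd79b passed the filter, while Pax5, Ebf1, Vpreb1, Igll1, Rag1 and Il7r did not. Haematopoietic and IL3-receptor genes (Ptprc, Il3ra, Csf2rb, Csf2rb2) summed to 3439 to 14981 CPM (counts per M reads counted in genes), with Kit at or near 0. Of the erythroid and megakaryocyte markers, Klf1, Epor, Itga2b and Gata1 were present, while the globin genes Hba-a1 and Hbb-bs were at 0.

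Gfi1b was read in all 27 libraries and spanned 16.9 to 445 CPM. Ranked by mean, LSD1-hairpin cells stood highest at 258 ± 162 CPM (SD, n = 3), followed by deprived wild type at 147 ± 13.5 (n = 5) and stimulated wild type at 59.0 ± 34.9 (n = 5). STAT5B-hairpin cells followed at 40.9 ± 7.10 CPM (n = 3), no-target cells at 36.3 ± 19.2 (n = 5), STAT5A-hairpin cells at 27.8 ± 2.24 (n = 3) and HDAC3-hairpin cells at 20.2 ± 2.87 (n = 3). Ranges of neighbours in this order overlapped except at 2 steps. The lowest deprived wild-type library, at 124 CPM, was above the highest stimulated one at 120 CPM, and the lowest STAT5A-hairpin library, at 25.8 CPM, was above the highest HDAC3-hairpin one at 21.8 CPM. The spread within a group was also uneven. The highest library was 3.29 times the lowest in stimulated wild type, 3.15 times in no-target cells and 2.88 times in LSD1-hairpin cells, but 1.26 times in deprived wild type. RNA was measured in bulk, so fewer cells that express a gene and less of its RNA per cell cannot be told apart.

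**Figure D1:**
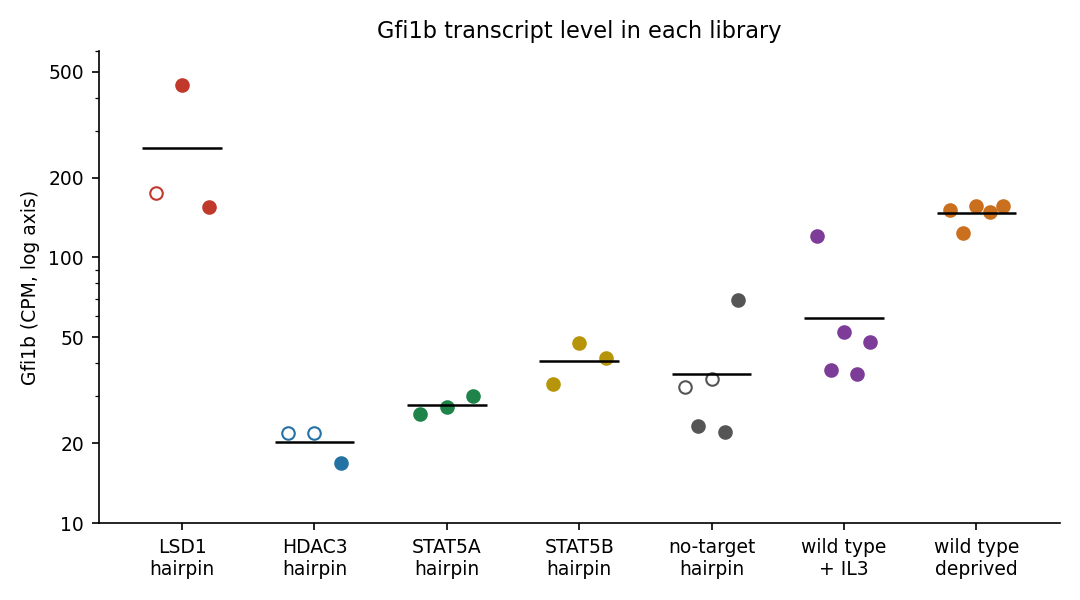
Gfi1b level (CPM, log axis) in each of the 27 libraries by group, with points in replicate order and a bar at the group mean; open points are the 5 libraries rich in reads outside genes. All LSD1-hairpin libraries sit at 154 CPM or more, and all HDAC3-hairpin libraries at 21.8 CPM or less.

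The LSD1 knockdown asks how gene activity depends on this demethylase, the co-repressor that the SNAG domain recruits. The hairpin left 50.2, 38.1 and 70.6% of the no-target mean of Kdm1a in the 3 libraries (73.0, 55.4 and 103 CPM, against 129 to 156 CPM in no-target cells). Gfi1b was at 176, 445 and 154 CPM in the same libraries, against 32.6, 23.2, 34.8, 21.9 and 69.1 CPM in no-target libraries. Every LSD1-hairpin library was more than 2 times the highest no-target library. Against the no-target mean, the 3 libraries stood 4.83, 12.2 and 4.24 times higher, and the library with the least Kdm1a had the most Gfi1b.

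In edgeR's quasi-likelihood fit over all genes, Gfi1b rose in LSD1-hairpin cells by a log2 fold change of 2.83 (SE 0.37, Benjamini-Hochberg adjusted p = 0.000251), a 7.09-fold difference with a 95% interval of 4.30 to 11.7. It had the third smallest p of 12073 genes, in a comparison that called 0.166% of them (0.157% higher and 0.00828% lower). The 1 gene lower was Kdm1a (-0.91, edgeR adjusted p = 0.00126). Without LSD1 replicate 2, the library with most Gfi1b, the log2 fold change was 2.17 (adjusted p = 0.0118). Without the 5 libraries rich in reads outside genes it was 2.96 (adjusted p = 0.0394), where Kdm1a itself fell short of the threshold (-0.90, adjusted p = 0.0515), as it did when the 4 libraries with the fewest multi-mapped reads per counted read were also left out (-0.88, adjusted p = 0.0889). A fit of only the LSD1 and no-target groups gave 2.84 for Gfi1b with an adjusted p of 0.412, and called no gene at all, Kdm1a included (-0.90, adjusted p = 0.821). The number of genes called in the comparison, 20, was itself unsteady, at 5 without LSD1 replicate 2, 57 without LSD1 replicate 3, and 8, 9 and 7 without no-target replicates 1, 4 and 5.

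**Figure D2:**
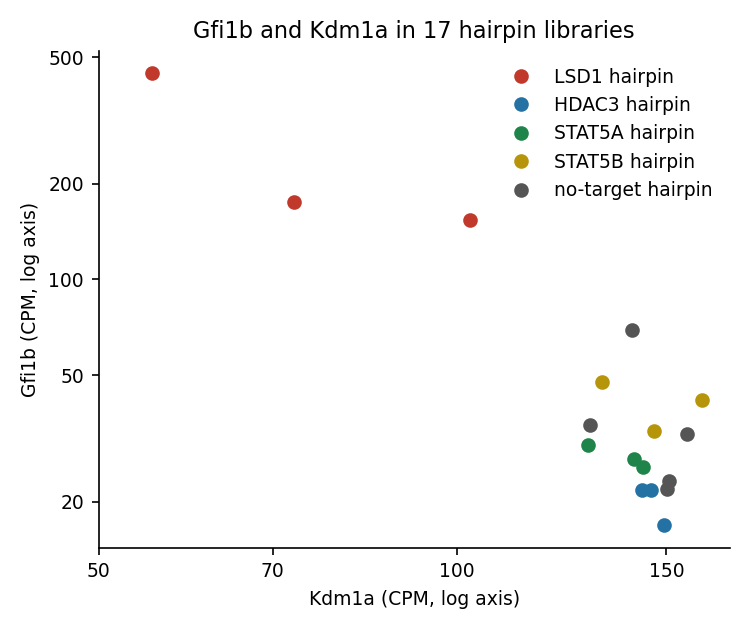
Gfi1b against Kdm1a (both CPM, log axes) in the 17 hairpin libraries, 1 point per library. The 3 LSD1-hairpin libraries lie apart at 55.4 to 103 CPM of Kdm1a and 154 to 445 CPM of Gfi1b, while the no-target libraries hold 129 to 156 CPM of Kdm1a and 21.9 to 69.1 CPM of Gfi1b.

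With the hairpin against HDAC3, the other co-repressor enzyme targeted, Gfi1b was no higher in any library than in the lowest no-target library. This hairpin left 63.7, 35.0 and 34.1% of the no-target mean of Hdac3 (log2 fold change -1.18, SE 0.18, edgeR adjusted p = 0.0130), a call lost without HDAC3 replicate 2 or 3 or no-target replicate 2 (adjusted p = 0.0533 to 0.126). Gfi1b was at 21.8, 21.8 and 16.9 CPM in HDAC3-hairpin libraries, against 21.9 to 69.1 CPM in no-target libraries, so the ranges did not meet, if only by a narrow margin. The log2 fold change was -0.86 (SE 0.39, edgeR adjusted p = 0.861), with an interval of -1.63 to -0.08. The comparison called 0.0248% of genes, and the difference in Gfi1b was not among them. Without no-target replicate 5 it shrank to -0.48, and against stimulated wild type in place of no-target cells it was -1.56 (adjusted p = 0.0250).

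The direct test of LSD1-hairpin against HDAC3-hairpin cells asks whether the effects of the 2 knockdowns differ, since the controls cancel. Gfi1b differed by a log2 fold change of 3.68 (SE 0.46, edgeR adjusted p = 0.000421), or 12.8-fold with a 95% interval of 6.83 to 24.1. This was the smallest p of all genes tested, in a comparison that called 0.82% of them (0.638% higher and 0.182% lower). The difference was 3.03 without LSD1 replicate 2 and 4.14 without the libraries rich in reads outside genes, where it no longer passed the test (adjusted p = 0.0733). That setting leaves 1 HDAC3-hairpin library, which the fit assumes to vary like the other groups.

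STAT5A and STAT5B hairpins left 32.7 to 38.0% of the no-target mean of Stat5a and 25.3 to 31.1% of that of Stat5b. Gfi1b was at 25.8, 27.3 and 30.2 CPM in STAT5A-hairpin libraries and at 33.4, 47.5 and 41.9 CPM in STAT5B-hairpin libraries. All lay within the no-target range of 21.9 to 69.1 CPM, whose upper end is no-target replicate 5 alone. The other no-target libraries lay at 21.9 to 34.8 CPM, below STAT5B replicates 2 and 3. The log2 fold change was -0.39 (interval -1.13 to 0.35, edgeR adjusted p = 0.712) for STAT5A and 0.17 (interval -0.56 to 0.90, edgeR adjusted p = 0.827) for STAT5B. These comparisons called 0.0663% and 0.34% of genes, or 8 and 41. With 1 library left out, the 8 became 2, 13, 3, 3 and 4 without no-target replicates 1 to 5, and the 41 became 171, 13 and 5 without STAT5B replicates 1 to 3 and 9, 10, 8 and 23 without no-target replicates 1, 3, 4 and 5. Between STAT5A-hairpin and STAT5B-hairpin cells Gfi1b differed by -0.56 (interval -1.38 to 0.26, edgeR adjusted p = 1), where 0.0248% of genes were called. The upper ends of these intervals, 0.35 and 0.90, lie below 2.10, the lower end for the LSD1 hairpin, although the 3 comparisons share their no-target libraries. The intervals still leave room for a fall of 1.13 or a rise of 0.90. The sign for STAT5B was not stable, and turned negative in 2 of 19 alternative settings.

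**Figure D3:**
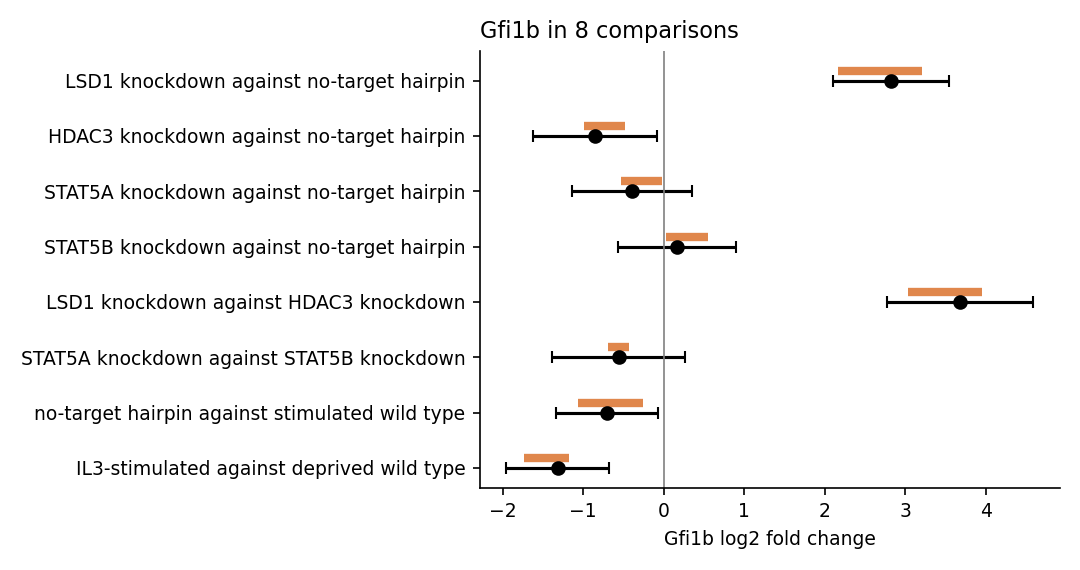
Log2 fold change of Gfi1b in the 8 comparisons (points, first-named group over the second), with 95% intervals as thin black lines and the range when 1 library at a time is left out as thick orange bars. Only the 2 comparisons with the LSD1 hairpin lie wholly above 2. The IL3 comparison is a description, since Gfi1b was put forward with it known, and its interval is not a test.

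The IL3 contrast in wild type was taken as the one by which Gfi1b came to notice, and its values are a description. Gfi1b was at 120, 37.7, 52.5, 36.6 and 48.0 CPM in stimulated libraries 1 to 5, against 151, 124, 157, 148 and 157 CPM in deprived ones. Same-numbered wild-type libraries varied together and were read as pairs. In all 5 pairs the stimulated library was lower, holding 79.9, 30.4, 33.5, 24.6 and 30.6% of its deprived partner. The fitted log2 fold change was -1.32 (SE 0.32), and -1.46 (SE 0.22) with the pairs as a block. The comparison called 3.82% of genes (3.0% higher and 0.82% lower), and nothing is read from Gfi1b's place among them. Stimulated replicate 1 stood apart in more than Gfi1b. Fos, an immediate early gene picked after its values were seen, was at 630 CPM there, against 72.5 to 107 CPM in the other 4 stimulated libraries, and Socs1, a STAT5-induced inhibitor of cytokine signalling, was lowest there at 138 CPM, against 190 to 211 CPM. Without that library the log2 fold change of Gfi1b was -1.74.

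**Figure D4:**
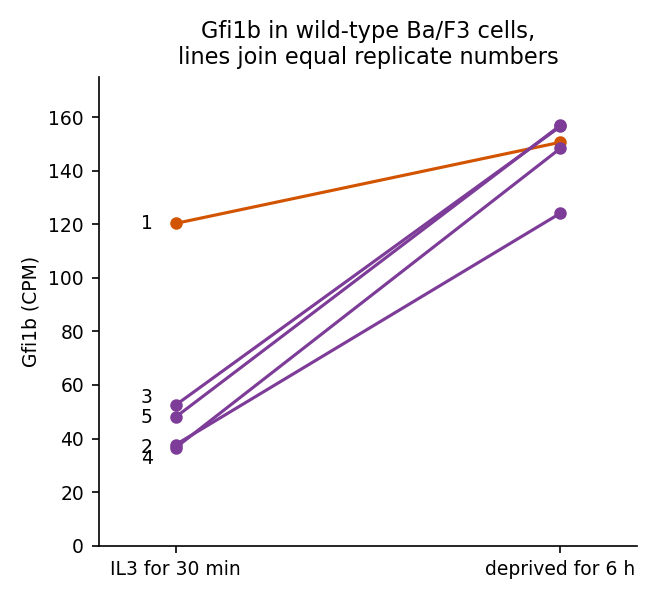
Gfi1b (CPM) in wild-type Ba/F3 cells given IL3 for 30 min (left) and in deprived cells (right), lines joining equal replicate numbers. All 5 lines end higher in deprived cells, and replicate 1 (orange) differs least, with 120 CPM in stimulated and 151 CPM in deprived cells.

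No-target and stimulated wild-type cells differ by the hairpin vector and selection, and their libraries differ too. No-target replicates 1 and 3 are rich in reads outside genes, and no wild-type library is. Depth was 6.93 to 17.6 M reads in no-target and 12.7 to 33.8 M in stimulated wild-type libraries. The comparison does not separate these differences from the vector. Gfi1b was at 36.3 ± 19.2 CPM in no-target cells (n = 5) and 59.0 ± 34.9 CPM in stimulated wild type (n = 5), with overlapping ranges. The log2 fold change was -0.70 (SE 0.32, edgeR adjusted p = 0.278, unadjusted 0.0409). edgeR called 0.0% of genes here, although 2042 genes had an unadjusted p under 0.05 and DESeq2 called 126. The value was -0.26 without stimulated wild-type replicate 1 and -1.06 without no-target replicate 5, each the library with most Gfi1b in its group. No-target replicate 5 also had the most Fos of its group, at 312 CPM, against 12.4 to 120 CPM in the other 4. The LSD1-hairpin group went the other way. There replicate 2, with most Gfi1b, had least Fos at 13.3 CPM, and replicate 3, with least Gfi1b, had most at 310 CPM.

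Gfi1 was close to absent. The gene (ENSMUSG00000029275.18) lies on the minus strand of chromosome 5 at 107716657 to 107726036 (GRCm38/mm10), and its 5′ end overlaps A430072P03Rik on the other strand. The counting strand is not stated, so reads from that overlap cannot be assigned to 1 of the genes. In all, 64 reads fell on Gfi1, with 15 libraries holding any and 12 at 0, against 37866 reads on Gfi1b. Per kilobase of exon, Gfi1 reached at most 0.252 CPM, while Gfi1b held 9.22 to 243 CPM per kilobase. Gfi1b made up at least 97.4% of the pair's reads in every library.

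The few Gfi1 reads were unevenly placed. STAT5A-hairpin libraries held 2, 1 and 17 reads and STAT5B-hairpin libraries 13, 10 and 0, against 0, 3, 1, 0 and 0 in no-target libraries. LSD1-hairpin libraries held 2, 4 and 3 reads and HDAC3-hairpin libraries 0, 1 and 0. Stimulated wild type held 2 reads in all and deprived wild type 5. Pooled over a group, this was 0.212 CPM (exact Poisson 95% interval 0.0970 to 0.403) in LSD1-hairpin cells, 0.400 (0.244 to 0.618) in STAT5A-hairpin and 0.528 (0.335 to 0.792) in STAT5B-hairpin cells, against 0.0723 (0.0197 to 0.185) in no-target cells. These intervals cover counting error only, and 3 libraries hold most of the STAT5 reads. Of these 3, STAT5A replicate 3 and STAT5B replicate 2 are libraries with few multi-mapped reads, a class that holds no no-target library. The part of that class in the Gfi1 reads was not tested. Fitted without the filter on low counts, the log2 fold change was 2.41 (SE 1.12, edgeR adjusted p = 0.516) for STAT5B, 2.04 (adjusted p = 0.807) for STAT5A and 1.40 (adjusted p = 0.745) for LSD1, so no difference in Gfi1 was detectable at this depth. The ratio of Gfi1b to Gfi1 reads within a library, compared by exact two-sided permutation tests over libraries in 5 comparisons, had adjusted p-values of 0.536 to 0.607. A prior of 0.5 reads was added to each count. The LSD1 difference from no-target cells in the log2 ratio was 1.16 with it and 2.74 with a prior of 10 reads. With so few Gfi1 reads and libraries, these tests cannot tell a changed ratio from an unchanged one.

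The gene next to Gfi1 was similarly patchy. Evi5, a regulator of small GTPases first described as a viral integration site, lies 18758 bases from Gfi1. It was at 1.96, 5.65 and 1.01 CPM in LSD1-hairpin libraries, 0.533, 0.503 and 3.35 CPM in STAT5A-hairpin and 4.16, 2.31 and 0.240 CPM in STAT5B-hairpin libraries, against 0 to 1.07 CPM in no-target libraries. The 3 STAT5-hairpin libraries with 10 or more Gfi1 reads were also the 3 highest for Evi5 among STAT5-hairpin libraries, while the library highest for Evi5 of all, LSD1 replicate 2, held 4 Gfi1 reads. The log2 fold change of Evi5 was 3.09 for LSD1 (edgeR adjusted p = 0.348), 2.15 for STAT5A (adjusted p = 0.566) and 2.77 for STAT5B (adjusted p = 0.223), none past the threshold. On the far side of Gfi1, Rpap2 differed by 0.35 in LSD1-hairpin cells (edgeR adjusted p = 0.848). The coding neighbours of Gfi1b, Gtf3c5 and Tsc1, differed there by -0.14 and -0.10 (edgeR adjusted p = 0.999 for both), beside the 2.83 of Gfi1b between them.

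**Figure D5:**
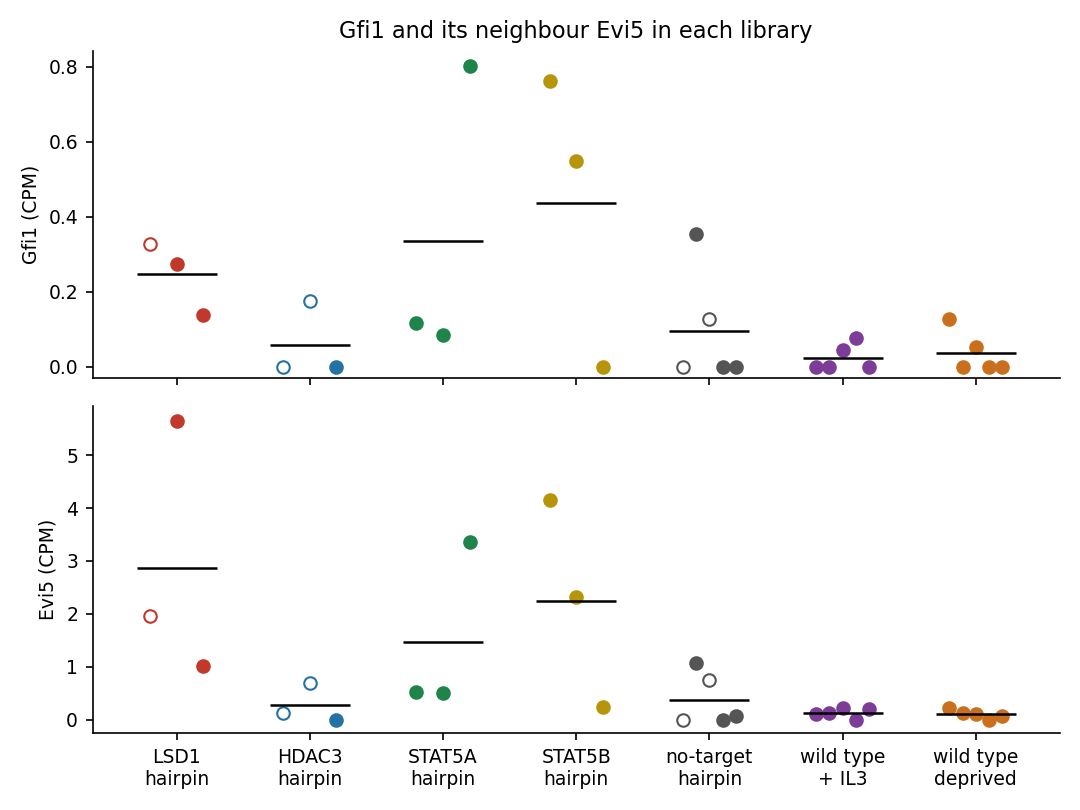
Gfi1 (upper panel) and its neighbour Evi5 (lower panel), in CPM per library by group, bars at the group mean and open points for the 5 libraries rich in reads outside genes. Gfi1 stays at or under 0.803 CPM, and Evi5 is highest in LSD1 replicate 2 at 5.65 CPM.

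The co-repressors that GFI1 and GFI1B work with were expressed throughout, and few of them were called. Of 26 listed partners, 25 were tested (all but Runx1t1), including subunits of the LSD1-CoREST complex, histone deacetylases, and histone methyltransferases. Against no-target cells, 1 partner fell with the LSD1 hairpin and 1 with the HDAC3 hairpin, each the hairpin's own target, and none was called with the STAT5A or STAT5B hairpin or, without pairing, after IL3. Over all genes the share called was 0.166% for LSD1, 0.0248% for HDAC3, 0.0663% for STAT5A, 0.34% for STAT5B and 3.82% for IL3. At such shares, few calls among 25 genes say little about the partners. With the wild-type pairs as a block, Rcor1 was called higher and Ehmt2 and Uhrf1 lower after IL3, 3 of 24 partners tested in a fit that called 13.3% of genes higher and 9.09% lower. The median log2 fold change of the partners was -0.16 for LSD1, 0.01 for HDAC3, -0.16 for STAT5A, -0.14 for STAT5B and -0.05 for IL3, while the median over all genes tested lay between -0.02 and 0.01 in each of the 8 comparisons. The most abundant uncalled partners were Gse1, a subunit of the LSD1-CoREST complex, at 451 ± 205 CPM in LSD1-hairpin cells (n = 3) and 552 ± 179 CPM in no-target cells (n = 5), and Chd4, the remodeller of the NuRD complex, at 465 ± 177 CPM in LSD1-hairpin and 518 ± 166 CPM in no-target cells. Between LSD1-hairpin and HDAC3-hairpin cells, 0.82% of all genes were called. Hdac3 was higher there (1.07, edgeR adjusted p = 0.0113), and Kdm1a (-0.92, adjusted p = 0.00576) and Uhrf1, a reader of hemimethylated DNA, were lower. Uhrf1 was at 248 ± 37.1 CPM in LSD1-hairpin and 402 ± 36.2 CPM in HDAC3-hairpin cells (-0.70, edgeR adjusted p = 0.0478), a call lost without any 1 of LSD1 replicates 2 and 3 or HDAC3 replicates 1, 2 and 3 (adjusted p = 0.0614 to 0.282).

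Of 40 genes listed as reported targets of GFI1 or GFI1B, 25 besides Gfi1b passed the filter. With the LSD1 hairpin 1 of the 25 rose and none fell, where 0.157% of all genes were higher. The median log2 fold change was -0.02 and 10 were positive, against a median of -0.02 and 47.2% positive over all genes. The gene that rose was Csf1, which encodes macrophage colony-stimulating factor. It was at 94.1, 282 and 58.3 CPM in LSD1-hairpin libraries, against 18.5, 19.5, 52.7, 24.7 and 24.1 CPM in no-target libraries (log2 fold change 2.38, SE 0.49, edgeR adjusted p = 0.0339). The ranges lay apart, and LSD1 replicate 2 was highest, as for Gfi1b. Without that replicate the log2 fold change was 1.43 (adjusted p = 0.971), and without no-target replicate 1, 2, 4 or 5 it was 2.26 to 2.33 with adjusted p-values of 0.0805 to 0.156. Csf1 also reached 130 CPM in STAT5A replicate 3.

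The most abundant of the other reported targets did not pass the test. Myc was at 969 ± 249 CPM in LSD1-hairpin and 1208 ± 382 CPM in no-target cells, Cdkn1a at 735 ± 271 CPM in LSD1-hairpin and 848 ± 157 CPM in no-target cells, and Gata2 at 724 ± 100 CPM in LSD1-hairpin and 629 ± 200 CPM in no-target cells (edgeR adjusted p = 0.999 for each). Against HDAC3-hairpin cells, 2 of the 25 targets were higher in LSD1-hairpin cells, where 0.638% of all genes were, Csf1 (2.90, edgeR adjusted p = 0.0169) and Cebpe, a granulocyte transcription factor. Cebpe was at 92.1, 176 and 201 CPM in LSD1-hairpin and 34.9, 30.3 and 33.2 CPM in HDAC3-hairpin libraries (2.26, edgeR adjusted p = 0.0435). Both calls were lost without LSD1 replicate 2 or any 1 of the HDAC3 replicates, and that of Cebpe also without LSD1 replicate 3 (adjusted p = 0.0568 to 0.208). None of the 25 was called with the HDAC3, STAT5A or STAT5B hairpin, where 0.0248, 0.0663 and 0.34% of all genes were.

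Without pairing, IL3 in wild type raised 7 of the 25 reported targets and lowered none, where 3.0% of all genes were higher, with a median of 0.17 against -0.02 over all genes. With the pairs as a block, 10 of 23 tested were higher and 3 were lower (Gata2, Cdkn1b and Cebpe), where 13.3% of all genes were higher and 9.09% lower. The 7 were Egr2 (log2 fold change 8.54), Socs1 (7.27), Socs3 (5.93), Id1 (3.69), Myc (3.49), Cdkn1a (2.12) and Egr1 (1.65), which are also known as genes that cytokines and mitogens induce directly. Myc was at 1263 ± 151 CPM in stimulated and 112 ± 40.0 CPM in deprived cells (n = 5 each, edgeR adjusted p = 6.37e-10). The call of Egr1 (edgeR adjusted p = 0.0293) was lost without stimulated replicate 1 or 4 or deprived replicate 3 or 5 (adjusted p = 0.0503 to 0.0859).

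GATA factors and other erythroid and megakaryocyte regulators, among which Gfi1b is usually counted, were not called beside it without pairing. None of the 16 tested (of 17 listed) was called by edgeR in any of the 8 comparisons fitted without pairs, which called 0.0 to 3.82% of all genes. With the LSD1 hairpin their median log2 fold change was 0.10, with 10 of 16 positive. Gata2 is given above, and Nfe2, a megakaryocyte and erythroid factor, was at 487 ± 102 CPM in LSD1-hairpin and 452 ± 123 CPM in no-target cells. After IL3 the median was -0.27, with 4 of 16 positive, against 47.0% of all genes, and Nfe2 was at 572 ± 132 CPM in stimulated and 814 ± 137 CPM in deprived cells (-0.51, edgeR adjusted p = 0.155). With the wild-type pairs as a block, 8 of these 16 were lower after IL3 and 2 were higher, where 9.09% of all genes were lower and 13.3% higher. The 8 include Nfe2 (-0.51, edgeR adjusted p = 0.0111), Gata2 (-0.53, adjusted p = 0.00874) and, named after their values were seen, Gata1 (-0.45, adjusted p = 0.00890) and Klf1 (-0.73, adjusted p = 0.00267), the erythroid transcription factors. Among 11 genes listed for a SNAG domain, Ovol1 was the only one besides Gfi1b to pass the filter.

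Markers of other lineages also differed between the hairpin groups. The summed level of 7 measured myeloid markers was 113 to 287 CPM in LSD1-hairpin libraries, against 6.39 to 63.2 CPM in no-target libraries, with no overlap. It was also 222 CPM in STAT5A replicate 3 and 49.0 to 388 CPM in STAT5B-hairpin libraries, where Gfi1b was at 30.2 CPM and 33.4 to 47.5 CPM. Not all myeloid markers shared the higher sum with the LSD1 hairpin, where 4 of 5 tested had a positive log2 fold change. Lyz2 was at 5.58 to 5.72 CPM in LSD1-hairpin and 4.06 to 6.99 CPM in no-target libraries. Cd14 did not overlap but was low in both, at 0.642 to 1.17 CPM in LSD1-hairpin and 0 to 0.592 CPM in no-target libraries. Other markers therefore hold most of the sum, and the median log2 fold change of the 5 tested was 2.53. None of the 5 myeloid markers tested was called with the LSD1 hairpin, while Cd14 was called with the STAT5A hairpin (6.51, edgeR adjusted p = 0.0459) and Lyz2 with the STAT5B hairpin (1.23, edgeR adjusted p = 0.0453). The Cd14 call was lost without STAT5A replicate 3 (1.04, adjusted p = 0.955) and without no-target replicate 1, 3, 4 or 5 (adjusted p = 0.105 to 0.214). That of Lyz2 was lost without any 1 STAT5B replicate or no-target replicate 1, 3, 4 or 5 (adjusted p = 0.0521 to 0.175). Of 4 mast-cell and basophil markers tested, Cpa3, a mast-cell protease, was called with the LSD1 hairpin (4.77, edgeR adjusted p = 0.0279), at 18.6, 390 and 3.99 CPM in LSD1-hairpin libraries against 1.30 to 8.71 CPM in no-target libraries. That call was lost without LSD1 replicate 2 (1.10, adjusted p = 1) and without no-target replicate 1, 2, 4 or 5 (adjusted p = 0.0616 to 0.121). The 9 erythroid and megakaryocyte markers summed to 722 to 831 CPM in LSD1-hairpin and 591 to 890 CPM in no-target libraries. No pro-B, haematopoietic, erythroid, megakaryocyte or T-cell marker tested was called in any of the 8 comparisons by edgeR without pairing. These comparisons called 0.0 to 3.82% of all genes. With the wild-type pairs as a block, 4 of 5 erythroid and megakaryocyte markers and Cd79b were lower after IL3, and the receptor subunits Csf2rb and Csf2rb2 and the T-cell marker Cd8a were higher. That fit called 9.09% of all genes lower and 13.3% higher. The 9 erythroid and megakaryocyte markers summed to 721 to 1393 CPM in stimulated and 950 to 1497 CPM in deprived libraries. The part of these other lineages in the Gfi1b values was not tested.

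The genes most like Gfi1b across libraries were sought among 9186 genes by Pearson correlation of log2 CPM, as a description, since libraries of a group share their treatment and all share the cell line. Over 27 libraries the highest were Dedd2 (r = 0.785), Nfkbia (0.782), Cxcr4 (0.741), Mkrn2 (0.740) and Arrb2 (0.738). Nfkbia, the inhibitor of NF-kB, averaged 22.3 CPM in LSD1-hairpin and 9.60 CPM in no-target cells, and 12.1 CPM in stimulated and 45.2 CPM in deprived wild type. Cxcr4, a chemokine receptor, averaged 311 CPM in LSD1-hairpin and 141 CPM in no-target cells, and 173 CPM in stimulated and 660 CPM in deprived wild type. Both therefore shared the 2 highest groups with Gfi1b, in the other order. The lowest were Ttll3 (-0.805), Gmeb2 (-0.801), Arih2 (-0.797), Mta2 (-0.782) and Stk40 (-0.768). Mta2, a NuRD subunit, averaged 354 CPM in LSD1-hairpin and 420 CPM in no-target cells.

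Over the 17 hairpin libraries alone, the lowest correlation of all genes was that of Kdm1a (r = -0.906), the target of the LSD1 hairpin. That hairpin lowers Kdm1a by design in the libraries where Gfi1b was highest, so nothing further is read from this r. Over 27 libraries it was -0.592. The next lowest over the hairpin libraries were Zfp740 (-0.799), Slc25a44 (-0.741), Csad (-0.739) and Ttll3 (-0.737). Slc15a3, a lysosomal peptide and histidine transporter, was highest at 0.869, averaging 47.5 CPM in LSD1-hairpin and 0.548 CPM in no-target cells. It averaged at most 1.13 CPM in any group but LSD1-hairpin cells. Slc15a3 thus reached the mean of 5 CPM needed for the search only through the group where Gfi1b is highest, and nothing is read from its place. Cnr2, a cannabinoid receptor of immune cells, followed at 0.804, with 61.0 CPM in LSD1-hairpin and 26.2 CPM in no-target cells, then Nfkbia (0.796), Sgpl1 (0.779) and Atp6v0a1 (0.734). In wild type Slc15a3 was low throughout, at 0.172 CPM in stimulated and 0.312 CPM in deprived cells. Gfi1 was too low for such a search, which needed a mean of at least 5 CPM.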

How the data were processed

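Raw read counts per gene symbol were deposited by the authors, 1 file per library, whose 5 summary lines entered neither library sizes nor tests. Per the submitters' processing notes reads were processed with mm10, Trimmomatic 0.30, HTSeq 0.5.4p5, TopHat2 2.0.10 and DESeq2 1.2, in an order not stated; the counting mode and annotation are not given in the sources used here. PolyA libraries came from a TruSeq kit, per the labels' protocols. Depth was 5.48 to 33.8 M counts. All 27 libraries entered 1 edgeR quasi-likelihood fit (R 4.3.3, edgeR 4.0.16, limma 3.58.1; robust, TMM factors, filterByExpr) with a mean per group. Genes were called at a Benjamini-Hochberg adjusted p under 0.05 over the 12073 genes tested. CPM uses TMM-scaled library sizes, a fold's SE is its size over the root of the F statistic, and 95% intervals are 1.96 SE either side. The pipeline was tested on simulated data.

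The members and gene lists were chosen with earlier results of these data known, so an adjusted p gives a gene's place in the whole table and is not independent evidence. The target and partner lists were written from general knowledge. Named are the pair, the hairpin targets, called list members, up to 4 of the most abundant uncalled ones, the 5 highest and lowest correlates (mean of at least 5 CPM, log2 CPM with prior count 2) and the neighbours; Fos was chosen after its values were seen. Same-numbered wild-type libraries deviated together in all 5 pairs (r 0.375 to 0.716), so equal numbers were read as pairs there only. No 2 replicates were copies (chi-square over degrees of freedom 10.4 to 164 in 42 pairs). Alternatives were other or no scaling factors, no filter, DESeq2 1.42.0, a fit of the 2 groups compared, a replicate block, library class as a term or a reason to leave libraries out, a threshold of 0.01, and each library left out. Restriction to the 18 commonest-class libraries, and stimulated wild type in place of no-target cells, were added after seeing the data. A listed marker is not reported here.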

Additional observations from a re-analysis of the deposited data

Results flagged for a closer look

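Over 11 genes in the 3 groups of 5 libraries, 33 sets of values were searched for a library far from the other 4 (Dixon's test), and 7 held one. Chance alone marks about 1 in 20 sets, but this is no yardstick for the 7, since Fos and Gfi1b were chosen with their values known and the same libraries recur across sets. For Gfi1b every group of 5 had one: no-target replicate 5 was highest at 69.1 CPM, stimulated wild-type replicate 1 was highest at 120.3 CPM, and deprived wild-type replicate 2 was lowest at 124.1 CPM. Stimulated replicate 1 was also highest for Fos at 630 CPM and lowest for Socs1 at 138 CPM. Deprived replicate 2 was also highest for Socs1 at 1.86 CPM. No-target replicate 3 was highest for Csf1 at 52.7 CPM.

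The effects of the LSD1 and HDAC3 hairpins on Gfi1b differed from each other by 3.68 on the log2 scale (LSD1 minus HDAC3, edgeR adjusted p = 0.000421). All 3 LSD1-hairpin libraries were above every no-target library, and all 3 HDAC3-hairpin libraries were below every no-target library.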

How the results depend on the processing

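The log2 fold change of Gfi1b kept its sign in all alternatives run for 7 of the 8 comparisons, the exception being STAT5B against no-target cells (-0.53 to 0.54). For LSD1 against no-target cells it passed the test in 16 of 19 alternatives and missed it in a fit of only the 2 groups (2.84, adjusted p = 0.412), with a replicate block (2.93, adjusted p = 1.0) and with only libraries of the commonest class (2.97, adjusted p = 0.0889). Equal numbers do not pair the libraries outside wild type, where only 2 of 3 LSD1 pairs correlated above 0.1. For LSD1 against HDAC3 it passed in 13 of 16 and missed in a fit of only the 2 groups (3.68, adjusted p = 0.117), without libraries rich in reads outside genes (4.14, adjusted p = 0.0733) and in the commonest class (4.14, adjusted p = 0.103), both of which leave 1 HDAC3-hairpin library. HDAC3 passed only against stimulated wild type (-1.56). With 1 library left out, Gfi1b ranged from 2.17 to 3.20 for LSD1, 3.03 to 3.95 for LSD1 against HDAC3, -0.995 to -0.475 for HDAC3, -0.53 to -0.01 for STAT5A, 0.03 to 0.54 for STAT5B, -1.06 to -0.26 for no-target against stimulated wild type and -1.74 to -1.18 for IL3. Genes called moved most: 0 to 173 for LSD1 (20 as reported), 0 to 403 for LSD1 against HDAC3 (99; 403 without LSD1 replicate 1, 4 without LSD1 replicate 2, 22 and 27 without HDAC3 replicates 1 and 3), 0 to 1460 for HDAC3 (3), 0 to 43 for STAT5A (8), 0 to 171 for STAT5B (41), 0 to 12 for STAT5A against STAT5B (3) and 252 to 2504 for IL3 (461; 2504 with the replicate block). Reported targets called higher were 0 to 1 for LSD1, 0 to 4 for LSD1 against HDAC3 and 6 to 10 for IL3, where targets called lower were 0 to 3 and partners called 0 to 3, both 3 with the replicate block. The cause of these moves was not tested. Depth limits Gfi1, whose largest count was 17 reads.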
